A study of Homo sapiens with 5 samples.

Results

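The genes described here are 53 members of the DNA repair and Fanconi anemia pathways, chosen by symbol and grouped by the repair pathway in which each is best known. All 53 had a row of their own among the 57221 rows of the deposited count table, all had at least 10 reads in at least 2 of the 5 libraries, and all 53 were among the 13075 genes tested. Expression was measured by RNA sequencing of total RNA from NK92MI. This is an established human natural killer cell line that makes its own interleukin 2 from an introduced gene. The solvent DMSO was given for 48 h to the cells of 2 libraries and, in the other group of 3 libraries, 10 µM UNC1999, an inhibitor of the histone methyltransferases EZH2 and EZH1. Libraries are numbered by the replicate in their labels. Both groups are the same line in the same medium, and no label names separate cultures. All p-values therefore cover only the spread between these 5 libraries, which may be technical.

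Cells meet DNA damage with several dedicated pathways. The Fanconi pathway detects crosslinks between the DNA strands: a nuclear core complex attaches ubiquitin to the FANCD2-FANCI pair, which then directs nucleases and recombination proteins to the lesion. Homologous recombination copies a sister chromatid to mend a double-strand break and works mainly in S and G2 phase, non-homologous end joining ligates the ends directly, and theta-mediated end joining anneals short repeats. Mismatch, base excision and nucleotide excision repair replace damaged or mispaired bases on a single strand. Lymphocytes also use end joining and mismatch repair proteins when they rearrange or diversify antigen receptor genes.

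Each library held 8442908 to 8748106 reads in genes. CPM, the usual scaled count, stands for a gene's reads relative to the library total after TMM scaling, which balances the makeup of the libraries. Log2 CPM correlated at 0.992 between the DMSO libraries, at 0.990 to 0.993 between the UNC1999 libraries and at 0.975 to 0.981 across groups. All 10 natural killer markers checked had at least 154 reads in every library, whereas CD3D, CD3G, CD8B and CD4 of T cells, MS4A1 of B cells, LYZ of monocytes and EPCAM and KRT18 of epithelium had 0 reads throughout, which by counting error alone (3 reads) allows 0.327 to 0.372 CPM. TRAC, a T cell receptor gene, had 726 to 975 reads, CSF1R of monocytes 41 to 59, and CD79A and CD14 at most 7. CDK7 and GTF2H4 of nucleotide excision repair also had few reads (2 to 4 and 0 per library), and why was not tested. A count of 0 therefore does not by itself show that a gene is silent. In RNA from bulk cultures, a change in the share of cells in a given state and a change in RNA per cell cannot be told apart, and cell cycle phase was not analysed here.

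Many of the listed repair genes, which were chosen with earlier results of these data known, were higher after UNC1999. A smaller set of them, which includes the abundant genes XRCC6 and PARP1, was lower. Of the 53 members, 27 (50.9%) were called higher and 7 (13.2%) lower, where called means an edgeR quasi-likelihood test with a Benjamini-Hochberg adjusted p under 0.05 over all tested genes. Over all 13075 tested genes these shares were 15.7% higher and 19.5% lower. The median log2 fold change of the members was 0.36, against -0.01 for all tested genes. The 3 UNC1999 libraries gave similar medians for the members when each was set against the DMSO mean (0.36, 0.34 and 0.32 on the log2 scale). In 33 members (62.3%) every UNC1999 library lay above both DMSO libraries, and in 10 (18.9%) every one lay below, against 24.2% and 30.4% of all tested genes. A called rise of at least 2-fold was seen for 4 members (7.55%; 2.56% of all tested genes): BRIP1, POLQ, BRCA2 and REV3L. The 7 lower members were FANCC, XRCC6, PARP1, PMS2, RNF8, LIG3 and ERCC3.

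**Figure D1:**
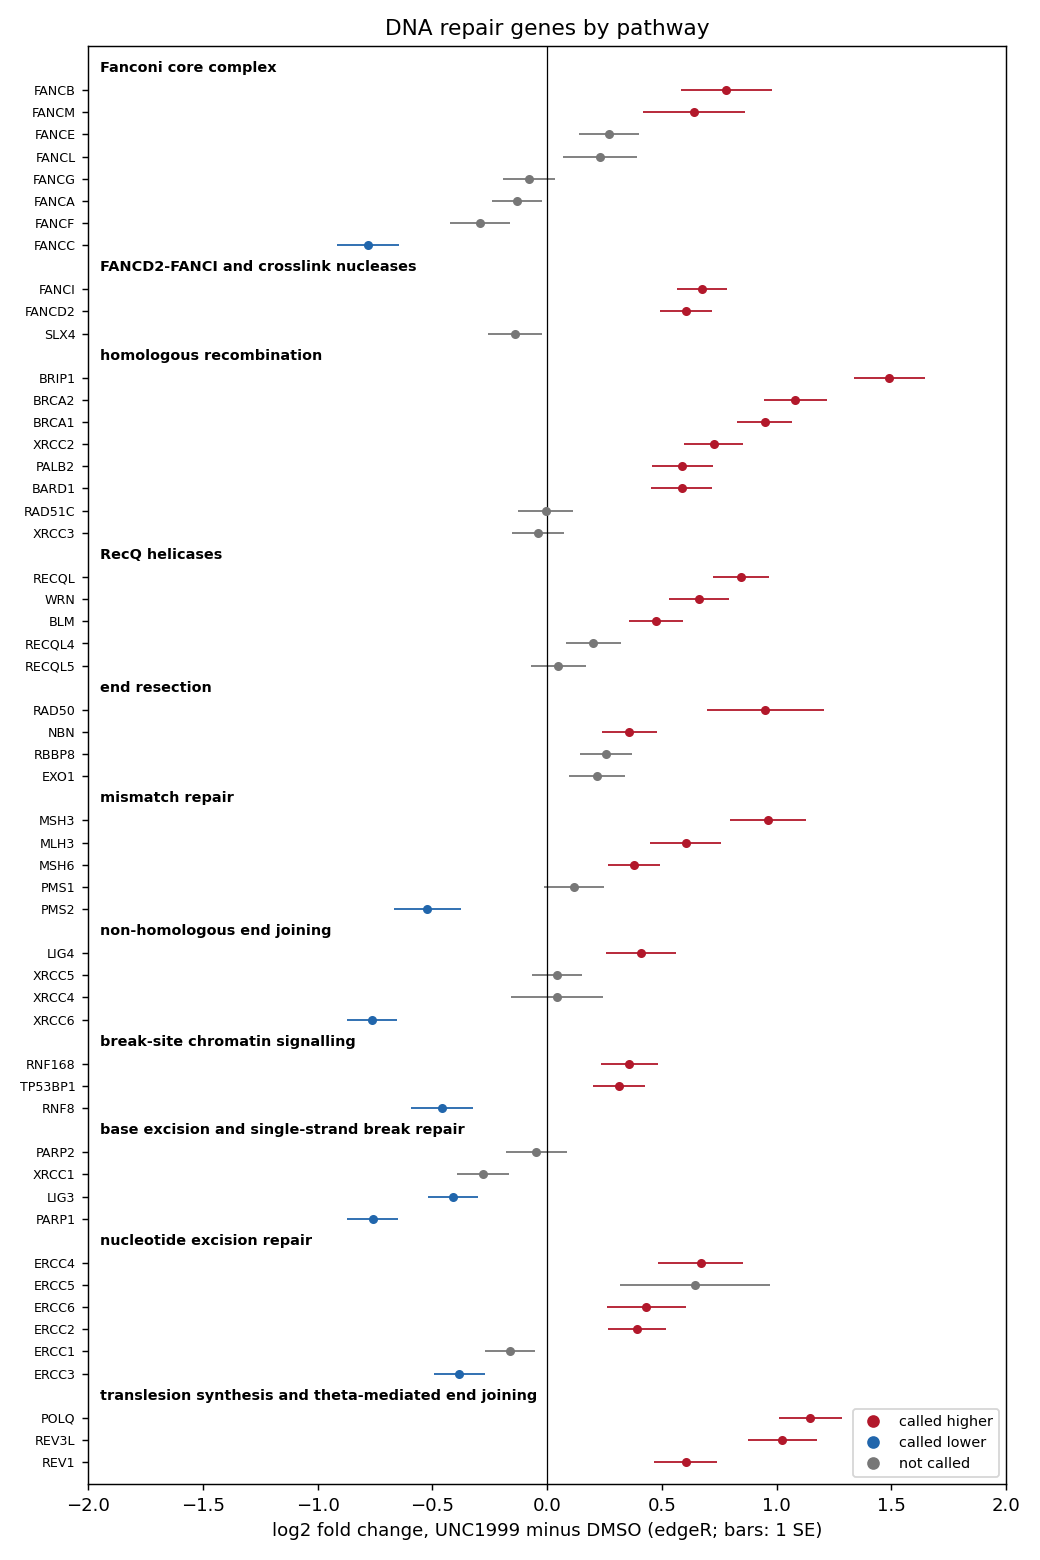
Log2 fold change (UNC1999 minus DMSO) of the 53 repair genes, grouped by pathway, with bars of 1 SE; red points were called higher, blue points lower and grey points were not called. The 3 genes of translesion synthesis and theta-mediated end joining all lie right of 0, from 0.60 to 1.15, and the 4 genes of base excision and single-strand break repair all lie left of it, from -0.76 to -0.05.

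These counts depended on which libraries entered the fit. Without DMSO library 1, 15 members (28.3%) passed as higher and 4 (7.55%) as lower, beside 8.57% and 10.1% of all genes tested in that fit, whose single DMSO library is assumed to vary like the UNC1999 ones. Leaving out each library in turn, 16 of the 34 called members kept their call every time: BRIP1, BRCA1, BRCA2, XRCC2, FANCB, FANCC, FANCD2, FANCI, WRN, RECQL, MSH3, XRCC6, PARP1, REV1, REV3L and POLQ.

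Over the whole table, fold changes varied with transcript GC content, and many repair genes sit at its low end. When tested protein-coding genes were ranked by GC content and cut into deciles, the medians were 0.44 in the lowest, -0.37 in the sixth and 0.17 in the highest decile. The lowest 3 deciles held 9, 7 and 12 of the members. The 27 members with at most 42.98% GC had 21 called higher and a median of 0.60, while the 26 members above it had 6 higher, 7 lower and a median of -0.06. By length, the 26 longer transcripts (above 4180 nt) had 20 higher and 3 lower, and the 27 shorter ones 7 higher and 4 lower. Over the 53 genes, which share the same libraries, Spearman's rho with the fold change was -0.63 for GC content and 0.48 for length.

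A second fit therefore carried offsets fitted to both trends in each library, for the 11019 tested genes with an annotated transcript. There 18 members (34.0%) passed as higher and 7 (13.2%) as lower, beside 16.0% and 17.8% of all genes in that fit, and the members' median was 0.16 against 0.01. Of the 34 calls made without offsets, 21 were made again in the same direction and 13 were not. Over the members, rho was then -0.32 for GC content and 0.36 for length, so the offsets reduced these relations without removing them. Since such offsets would also remove a true response that follows GC content or length, both values are given below, those of the second fit as "with offsets". A value given for a gene without further words is its log2 fold change in the first fit. How much of each fold change goes with GC content was not tested beyond this comparison.

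**Figure D2:**
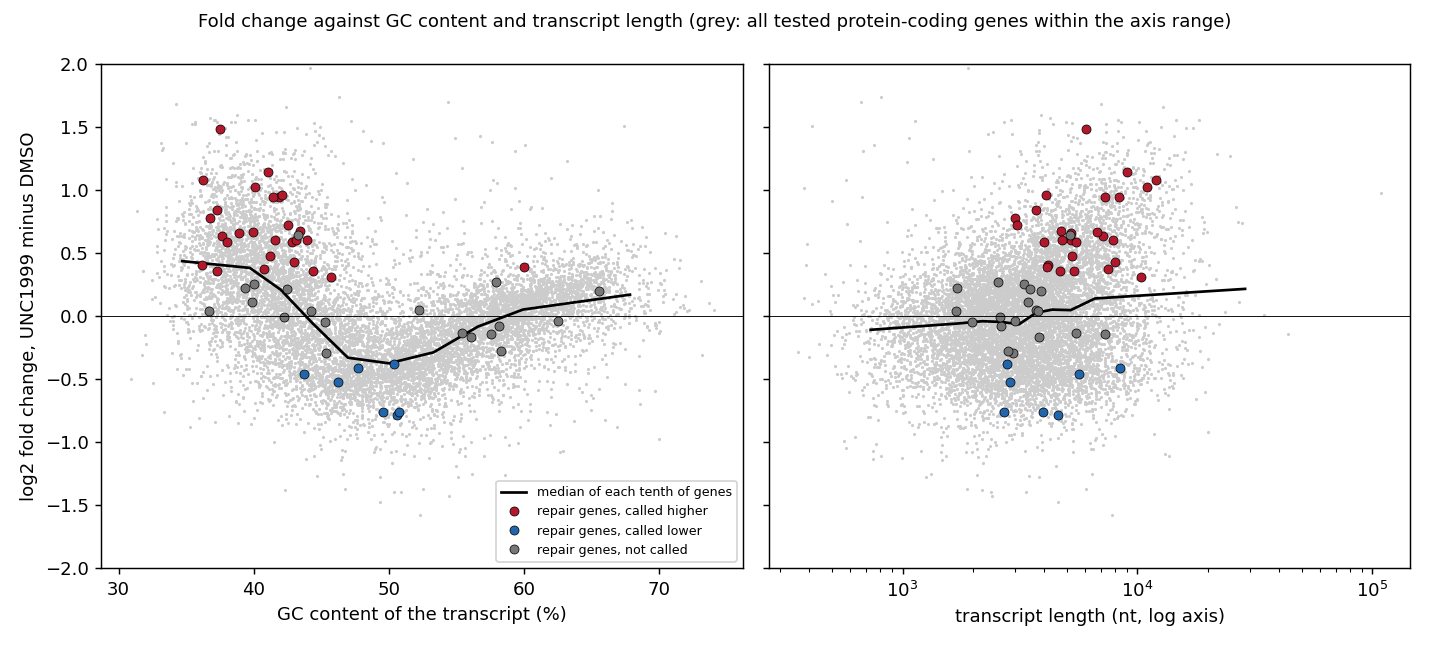
Log2 fold change (vertical axis) against GC content in percent (left) and transcript length in nt on a log axis (right) for tested protein-coding genes (grey) and the repair genes (coloured by call); the black line joins the decile medians. Red points gather at low GC content, where the black line is above 0, and the 7 blue points lie between 43.7% and 50.7% GC.

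**Figure D3:**
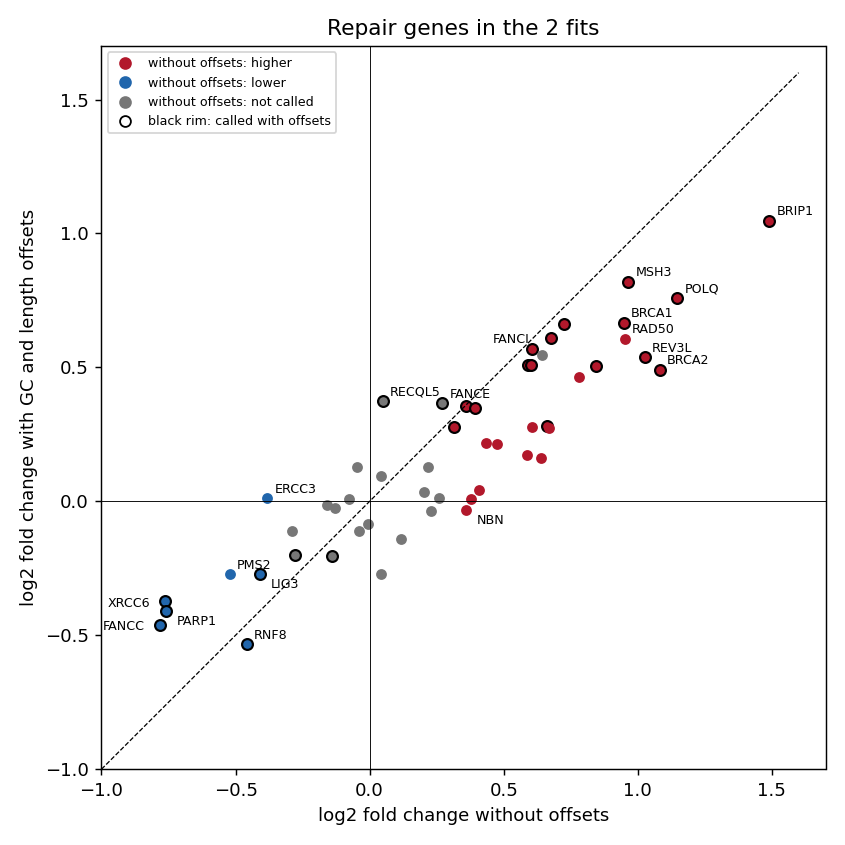
Log2 fold change with GC and length offsets (vertical axis) against the value without them (horizontal axis) for the 53 repair genes; colour gives the call without offsets, a black rim a call with them, and the dashed line equal values. Most red points lie below the dashed line, with BRIP1 highest in both fits, and MSH6, ERCC3, NBN and LIG4 are the genes called without offsets that lie nearest 0 with them.

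The promoters of the 2 called members with the highest and 2 with the lowest fold changes are shown, because these are the ends of the range described below. XRCC6 would have been among them, but exons fill most of its window, and PARP1, next in order, took its place. The sequences are from RefSeq (GRCh38.p14), on the strand of the gene, 5′ to 3′. BRIP1 (chr17:61863529-61863778), FANCC (chr9:95317710-95317959) and PARP1 (chr1:226408094-226408343) give the 250 bases up to the base before the start site. POLQ (chr3:121546007-121546238) gives 232 bases and leaves off the 18 bases next to the start, which an annotated exon covers. Start sites are those of RefSeq and differ from the gene ends in GENCODE 29 given below: the windows of POLQ and FANCC lie inside the GENCODE gene spans, which begin further upstream. All 4 genes lie on the minus strand. Capitals mark, on either strand, CCAAT (bound by NF-Y), GGGCGG (bound by SP1) and 4 forms of the E2F site (TTTGGCGC, TTTCCCGC, TTTGCCGC and TTTCGCGC).
BRIP1: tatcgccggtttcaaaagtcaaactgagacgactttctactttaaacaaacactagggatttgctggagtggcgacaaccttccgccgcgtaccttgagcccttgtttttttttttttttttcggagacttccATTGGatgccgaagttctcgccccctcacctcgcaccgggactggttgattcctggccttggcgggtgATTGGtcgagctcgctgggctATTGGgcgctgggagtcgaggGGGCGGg
POLQ: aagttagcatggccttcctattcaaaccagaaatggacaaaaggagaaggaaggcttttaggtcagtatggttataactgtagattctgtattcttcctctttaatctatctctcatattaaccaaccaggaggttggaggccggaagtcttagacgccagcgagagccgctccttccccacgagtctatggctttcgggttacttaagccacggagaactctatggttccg
FANCC: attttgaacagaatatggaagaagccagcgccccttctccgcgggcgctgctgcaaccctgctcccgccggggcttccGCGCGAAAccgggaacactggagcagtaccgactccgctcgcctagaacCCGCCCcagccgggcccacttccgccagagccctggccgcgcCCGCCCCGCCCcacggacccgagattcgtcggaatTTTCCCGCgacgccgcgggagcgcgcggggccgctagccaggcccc
PARP1: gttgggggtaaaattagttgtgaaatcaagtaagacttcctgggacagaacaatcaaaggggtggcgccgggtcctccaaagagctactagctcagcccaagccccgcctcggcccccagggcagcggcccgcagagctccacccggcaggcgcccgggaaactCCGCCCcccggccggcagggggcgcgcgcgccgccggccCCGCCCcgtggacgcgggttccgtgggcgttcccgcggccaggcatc

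The BRIP1 window held CCAAT on the reverse strand at 117, 49 and 28 bases before the start, and GGGCGG at 7 bases before it. FANCC held 2 E2F forms, at 172 and 46 bases before the start, and 3 copies of GGGCGG, of which 2 overlap. PARP1 held GGGCGG at 86 and 47 bases before the start. The POLQ stretch shown held none of these letters, but GGGCGG is found in its 250-base window once the unprinted 18 bases are included. Of the 48 members matched by symbol in the RefSeq table (FANCI, WRN, RECQL4, NBN and XRCC5 were not matched), 4 (8.33%) held at least 1 of the 4 E2F forms in the 250 bases before the start, against 2.79% of all 35116 promoters. The 4 were FANCA, FANCC, MSH3 and PMS2, of which 1 was called higher, 2 lower and 1 not called. CCAAT stood in 17 of 48 (35.4%; 32.0% of all promoters) and GGGCGG in 33 of 48 (68.8%; 42.6%). GGGCGG was present in 14 of 24 members called higher, 6 of 7 called lower and 13 of 17 not called. The 35116 promoters were not limited to genes tested here, whereas every member was tested, so the 2 sets differ in kind. These are matches of letters and no measure of binding.

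The homologous recombination genes held the largest rise of the members. Of 8 members, 6 were higher and 2 were not called, with a median log2 fold change of 0.66 (with offsets 5 higher and 0.50). BRIP1, the DNA helicase that binds BRCA1 and is also known as FANCJ, had 65 and 82 reads in DMSO and 219, 224 and 230 in UNC1999. The 3 treated libraries lay close together and far above both controls. In CPM the gene went from 8.91 ± 1.19 (SD, n = 2) to 25.1 ± 0.935 (SD, n = 3), which is 1.49 ± 0.15 as log2 fold change and SE (adjusted p = 5.98e-09 in edgeR; with offsets 1.05). It was the largest rise among the 53 members in both fits. In GENCODE 29 (GRCh38, whereas the authors' build is hg19) BRIP1 lies on chromosome 17 from 61681266 to 61863521.

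Both BRCA genes rose. BRCA1, a ubiquitin ligase that promotes end resection, had 277 and 317 reads in DMSO and 626, 623 and 616 in UNC1999, with 0.95 ± 0.12 as log2 fold change and SE (adjusted p = 1.72e-07 in edgeR; with offsets 0.67). BRCA2, a mediator of strand exchange that binds single-stranded DNA, had 140 and 124 reads in DMSO and 294, 313 and 304 in UNC1999, with 1.08 ± 0.14 (SE, adjusted p = 2.03e-07 in edgeR; with offsets 0.49). Neither gene's groups overlapped. BRCA2 has one of the longest transcripts (11986 nt) and one of the lowest GC contents (36.3%) of the members, and its value was among those that the offsets lowered most.

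**Figure D4:**
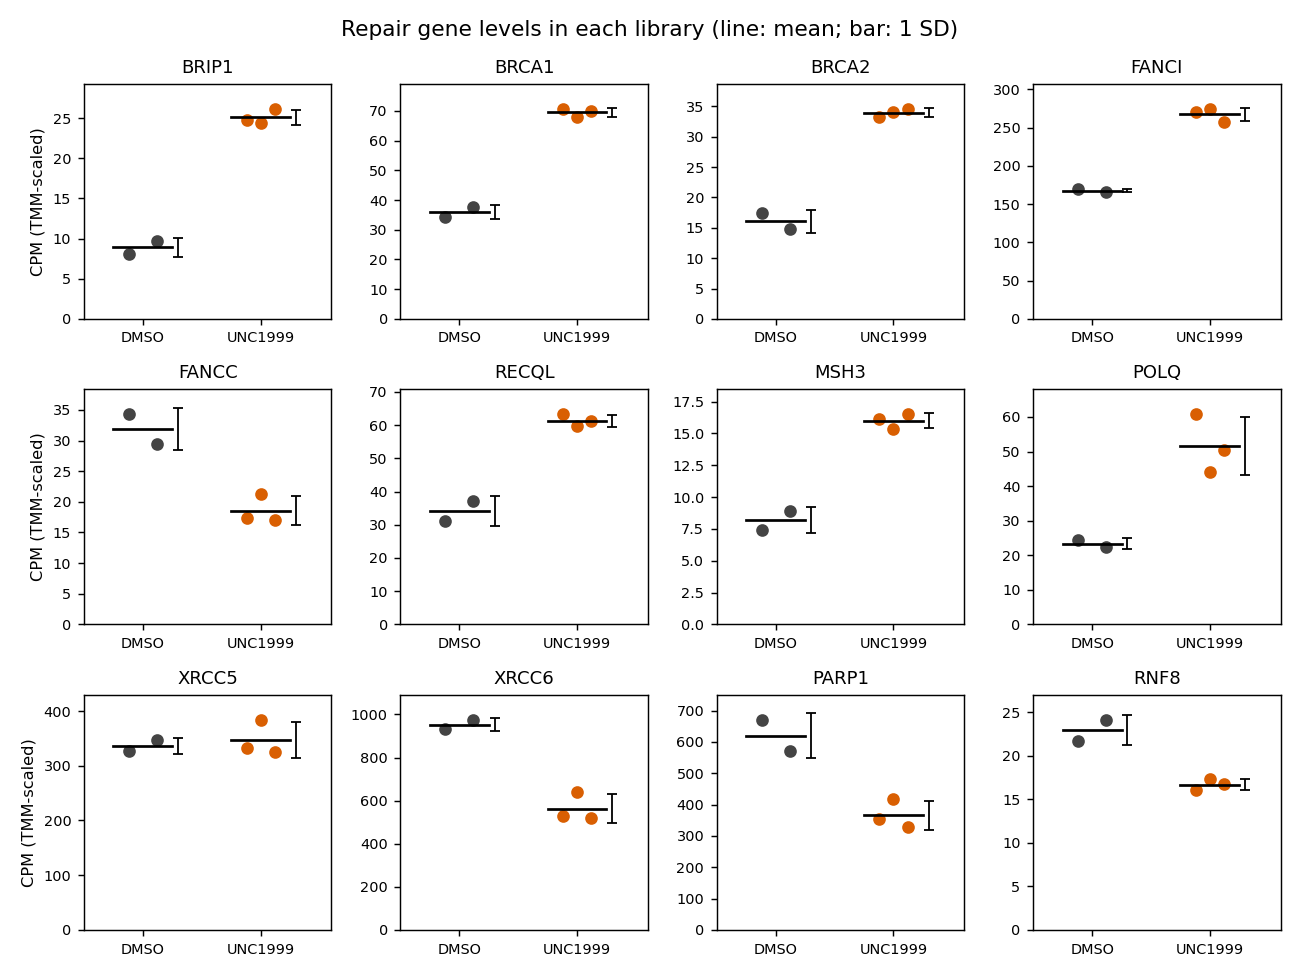
TMM-scaled CPM of 12 repair genes in each DMSO (grey) and UNC1999 (orange) library, with the group mean as a line and 1 SD as a bar; each vertical axis starts at 0. The groups are apart for all genes shown except XRCC5. UNC1999 library 2, the middle orange point, is the treated library nearest DMSO for all genes shown except BRCA2, FANCI and XRCC5.

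The binding partners of these proteins had smaller fold changes, and the read ratios of the pairs are given further on. BARD1, the obligate partner of BRCA1, had 0.59, but the call was lost without DMSO library 1 (0.46, adjusted p = 0.0594 in edgeR) and with offsets (0.17). PALB2, which bridges BRCA1 and BRCA2, also had 0.59, with the call lost without DMSO library 1 (0.47, adjusted p = 0.0551 in edgeR) and kept with offsets (0.51). XRCC2, which assists strand exchange, rose from 25.4 ± 0.433 to 42.0 ± 3.62 CPM (SD of n = 2 and n = 3; 0.73 on the log2 scale, 0.66 with offsets). The related genes RAD51C (-0.01) and XRCC3 (-0.04) were not called, and their groups overlapped. XRCC3 shares 5756 exon bases with KLC1 on the opposite strand, and since no strand setting is given, reads of the pair cannot be told apart.

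Other recombination genes, from a list of companions to the members, split. Of 20 tested, 5 were higher and 7 lower (3 and 1 with offsets, of 19). RAD54B, a translocase, had the highest value (1.19) on 7 to 24 reads per library. Its call was lost without UNC1999 library 1 or UNC1999 library 2 (adjusted p = 0.0714 and 0.0587 in edgeR). It was also lost with offsets (0.88, adjusted p = 0.107 in edgeR) and without DMSO library 1 (1.41) or DMSO library 2 (0.99). RAD51D, which acts with XRCC2, had the lowest value (-0.66, with offsets -0.59).

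In the Fanconi pathway both partners of the ubiquitinated pair rose. FANCI had 1363 and 1394 reads in DMSO and 2392, 2517 and 2266 in UNC1999, with 0.68 ± 0.11 as log2 fold change and SE (adjusted p = 8.45e-06 in edgeR; with offsets 0.61). FANCD2 had 398 and 405 reads in DMSO and 632, 699 and 661 in UNC1999, with 0.61 ± 0.11 (SE, adjusted p = 7.89e-05 in edgeR; with offsets 0.57). The groups of both genes were well apart, and the offsets changed the values little. SLX4, a scaffold for the nucleases that cut the crosslink out, had -0.14 and overlapping groups. It was called lower with offsets (-0.20, adjusted p = 0.0423 in edgeR). FANCI lies on chromosome 15 from 89243949 to 89317261 and FANCD2 on chromosome 3 from 10026414 to 10101930 (GRCh38). Among 7 other tested genes of this step, 2 were higher and 2 lower. SLX4IP, which binds SLX4, had the highest value (0.73, with offsets 0.53) and DCLRE1B, a nuclease also known as Apollo, the lowest (-0.69, with offsets -0.37).

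The core complex showed no common direction. Of 8 members, 2 were higher, 1 lower and 5 not called, with a median of 0.08 (with offsets -0.01). FANCC, an adaptor subunit, had 276 and 248 reads in DMSO and 154, 195 and 149 in UNC1999, which is -0.78 ± 0.14 as log2 fold change and SE (adjusted p = 2.5e-05 in edgeR; with offsets -0.46). It had the lowest fold change of the 53 members without offsets (with them RNF8 was lower, at -0.53), with UNC1999 library 2 nearest the controls. FANCB, a scaffold of the catalytic part, had 45 and 46 reads in DMSO and 97, 87 and 71 in UNC1999, with 0.78 ± 0.20 (SE, adjusted p = 0.00215 in edgeR; with offsets 0.46 and not called, adjusted p = 0.0618 in edgeR). FANCC and FANCB thus moved in opposite directions, FANCB on fewer reads.

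FANCM, the DNA translocase that anchors the core complex, had 0.64 on 36 to 70 reads per library. That call was lost with offsets (0.16) and without DMSO library 1, DMSO library 2 or UNC1999 library 1 (adjusted p = 0.0875, 0.167 and 0.0852 in edgeR). FANCA, a large regulatory subunit, had 1735 and 1598 reads in DMSO and 1694, 1584 and 1685 in UNC1999, with -0.13 and overlapping groups. It shares 2302 exon bases with ZNF276 on the opposite strand. FANCG (-0.08) was not called either, nor were FANCE (0.27; called higher with offsets, 0.37), FANCF (-0.29) and FANCL, the ubiquitin ligase subunit (0.23). Of 5 other core-complex genes tested, 1 was higher and 1 lower. FAAP100 had 0.43, lost without DMSO library 1 (adjusted p = 0.1 in edgeR), and FAAP24 had -0.48, lost without DMSO library 2 (-0.23, adjusted p = 0.411 in edgeR) and with offsets (-0.09).

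RecQ helicases, which unwind forks and recombination intermediates, gave 3 higher and 2 not called of 5, with a median of 0.48 (with offsets 3 higher and 0.28). RECQL had 250 and 313 reads in DMSO and 560, 547 and 538 in UNC1999, which is 0.84 ± 0.12 as log2 fold change and SE (adjusted p = 1.68e-06 in edgeR; with offsets 0.51). All treated libraries were far above the controls. WRN, the Werner syndrome helicase, rose by 0.66 (with offsets 0.28). BLM, the Bloom syndrome helicase, had 0.48, a call lost without DMSO library 2 (0.43, adjusted p = 0.0574 in edgeR) and with offsets (0.21). RECQL4 (0.20) and RECQL5 (0.05) were not called and their groups overlapped, though RECQL5 was called higher with offsets (0.37). The partners of BLM also split: RMI1 rose (0.998, with offsets 0.67), and RMI2 had -0.53, lost without DMSO library 2 (adjusted p = 0.108 in edgeR) and with offsets (-0.16). RECQL shares 1566 exon bases with PYROXD1 on the opposite strand.

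End resection genes, which trim break ends to single strands before recombination, had 2 higher and 2 not called of 4, and neither call was made with offsets. RAD50, the structural arm of the MRE11-RAD50-NBN complex, had 25 and 28 reads in DMSO and 62, 40 and 65 in UNC1999, which is 0.95 ± 0.25 as log2 fold change and SE (adjusted p = 0.00328 in edgeR). Its call was lost without DMSO library 1 (0.90, adjusted p = 0.05 in edgeR) and with offsets (0.61, adjusted p = 0.0667 in edgeR). Its level is uncertain, since 7784 of its exon bases also belong to another annotated gene on the same strand. NBN had 0.36, with the call lost without DMSO library 1, DMSO library 2 or UNC1999 library 1 (adjusted p = 0.0716, 0.212 and 0.0742 in edgeR) and the sign turned with offsets (-0.03). RBBP8, the resection starter CtIP (0.26), and the exonuclease gene EXO1 (0.22) did not pass, although every treated library was above the controls. MRE11 (listed as MRE11A), not a member, rose by 0.73 and was not in the fit with offsets.

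Among mismatch repair genes 3 were higher, 1 lower and 1 not called of 5. MSH3, which helps to recognise larger loops, had 60 and 75 reads in DMSO and 143, 141 and 145 in UNC1999, which is 0.96 ± 0.17 as log2 fold change and SE (adjusted p = 2.2e-05 in edgeR). With offsets it kept most of that value (0.82) and was the only member of this pathway still called. MSH6, which helps to recognise single mismatches, had 0.38, lost without DMSO library 1 or DMSO library 2 (adjusted p = 0.143 and 0.0648 in edgeR) and near 0 with offsets (0.01). MLH3, a subunit of a mismatch endonuclease, had 0.60, lost without DMSO library 2 (0.52, adjusted p = 0.0608 in edgeR) and with offsets (0.28).

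PMS2, the main endonuclease subunit of mismatch repair, had 163 and 150 reads in DMSO and 115, 114 and 126 in UNC1999. Each treated library was below both controls, with -0.52 ± 0.15 as log2 fold change and SE (adjusted p = 0.00493 in edgeR). The call was lost without DMSO library 1 (-0.43, adjusted p = 0.108 in edgeR) and with offsets (-0.27, adjusted p = 0.119 in edgeR). PMS2 has several near-identical pseudogene copies, of which PMS2P1 alone had 2090 reads over the 5 libraries against 668 for PMS2, so its counts are uncertain. PMS1, a relative, had 0.12 and was not called. MSH3 lies on chromosome 5 from 80654648 to 80876460 (GRCh38).

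In non-homologous end joining, the gene of one Ku subunit fell and that of the other did not change beyond the spread. XRCC6 (Ku70) had 7497 and 8201 reads in DMSO and 4686, 5860 and 4558 in UNC1999, a fall from 953.0 ± 31.3 to 562.2 ± 66.5 CPM (SD of n = 2 and n = 3). The log2 fold change and SE were -0.76 ± 0.11 (adjusted p = 1.49e-06 in edgeR; with offsets -0.37). XRCC5 (Ku80) had 2628 and 2920 reads in DMSO and 2941, 3522 and 2857 in UNC1999, with 0.04 ± 0.11 (SE, adjusted p = 0.795 in edgeR; with offsets 0.10) and overlapping groups. UNC1999 library 2 was the highest treated library for both subunits. The ratio of XRCC5 to XRCC6 reads was 0.351 and 0.356 in DMSO and 0.628, 0.601 and 0.627 in UNC1999.

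Both Ku proteins form a ring around the DNA end, to which LIG4 and its scaffold XRCC4 are then recruited. LIG4, the ligase, had 91 and 114 reads in DMSO and 151, 148 and 144 in UNC1999 (0.41). That call was lost without DMSO library 1, DMSO library 2, UNC1999 library 1 or UNC1999 library 3 (adjusted p = 0.342, 0.0514, 0.0903 and 0.0581 in edgeR) and with offsets (0.04). XRCC4 had 0.04 and overlapping groups. Of 8 other end joining genes tested, 1 was higher and 1 lower: DCLRE1C, the Artemis nuclease (0.67, with offsets 0.50), and TDP1, which frees blocked ends (-0.55, with offsets -0.42). XRCC6 lies on chromosome 22 from 41621119 to 41664048 and XRCC5 on chromosome 2 from 216107464 to 216206303 (GRCh38).

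Genes of translesion synthesis, which copies past damaged bases, and of theta-mediated end joining rose together: all 3 members were higher in both fits. POLQ, the polymerase of theta-mediated end joining, had 197 and 187 reads in DMSO and 538, 405 and 442 in UNC1999, which is 1.15 ± 0.14 as log2 fold change and SE (adjusted p = 8.07e-08 in edgeR; with offsets 0.76). The treated libraries differed among themselves more than for most members, and all lay above both controls (44.2 CPM in the lowest treated library, 24.5 in the higher control). REV3L, the catalytic subunit of polymerase zeta, rose by 1.03 ± 0.15 (SE, adjusted p = 1.94e-06 in edgeR; with offsets 0.54), and REV1, its scaffold and partner polymerase, by 0.60 (with offsets 0.51). REV1 shares 852 exon bases with EIF5B on the opposite strand.

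Other genes of damage tolerance did not all follow. Of 10 tested, 3 were higher and 1 lower (3 and 3 with offsets). POLK, a translesion polymerase, had the highest value (1.03, with offsets 0.61), and POLH, the polymerase that copies past ultraviolet damage, the lowest (-0.70, with offsets -0.40). Translesion polymerase genes thus lay at both ends of that list. POLQ lies on chromosome 3 from 121431427 to 121546641 (GRCh38).

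Base excision and single-strand break repair was the pathway with falls and no rise among its 4 members: 2 were lower and 2 not called. PARP1, which senses strand breaks and marks them with poly(ADP-ribose), had 5401 and 4793 reads in DMSO and 3132, 3831 and 2874 in UNC1999. Every treated library was below both controls, and CPM fell from 620.3 ± 71.2 to 366.1 ± 46.5 (SD, n = 2 and n = 3), which is -0.76 ± 0.11 as log2 fold change and SE (adjusted p = 2.55e-06 in edgeR; with offsets -0.41). LIG3, the ligase of this pathway, had -0.41 (with offsets -0.27), lost without DMSO library 1 (-0.34, adjusted p = 0.113 in edgeR). It shares 3754 exon bases with RFFL on the opposite strand.

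XRCC1, the scaffold that holds LIG3, missed the threshold (-0.28, adjusted p = 0.0504 in edgeR), with every treated library below the controls, and was called lower with offsets (-0.20, adjusted p = 0.0439 in edgeR). PARP2, a second break sensor, had -0.05 and overlapping groups. The difference between PARP1 and PARP2 was not tested. Of 19 other genes tested, 2 were higher and 4 lower (3 and 3 with offsets). FEN1, the flap nuclease, had the lowest value (-0.66, with offsets -0.36). PARG, which removes poly(ADP-ribose), had the highest (0.48, with offsets 0.41), and lost its call without DMSO library 2 (0.40, adjusted p = 0.13 in edgeR). PARP1 lies on chromosome 1 from 226360691 to 226408079 (GRCh38).

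The 3 genes that signal breaks through chromatin moved in different directions, and all 3 calls were also made with offsets. RNF8, the ubiquitin ligase that starts the signal, had 175 and 203 reads in DMSO and 142, 159 and 147 in UNC1999, which is -0.46 ± 0.14 as log2 fold change and SE (adjusted p = 0.00811 in edgeR; with offsets -0.53). RNF168, the ligase that spreads it, had 257 and 320 reads in DMSO and 387, 417 and 400 in UNC1999, with 0.36 ± 0.12 (SE, adjusted p = 0.0202 in edgeR; with offsets 0.36). TP53BP1, the reader that limits resection, had 0.31 (with offsets 0.28). Each of these calls was lost in at least 1 fit with a library left out. RNF8 lost its call without DMSO library 2 (-0.38, adjusted p = 0.124 in edgeR), RNF168 without DMSO library 1 or UNC1999 library 3 (adjusted p = 0.344 and 0.0525 in edgeR), and TP53BP1 without DMSO library 1, DMSO library 2 or UNC1999 library 3 (adjusted p = 0.251, 0.106 and 0.0774 in edgeR).

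TP53BP1 shares 3732 exon bases with TUBGCP4 on the opposite strand. Of 14 other genes of this step tested, 3 were higher and 3 lower. BRCC3, a deubiquitinase of the BRCA1-A complex, had the highest value (1.03, with offsets 0.86). DYNLL1, a TP53BP1 partner, had the lowest (-0.55, with offsets -0.21).

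Nucleotide excision repair gave 3 higher, 1 lower and 2 not called of 6, and ERCC2 was the only one of these calls made with offsets. ERCC4 (XPF), a nuclease subunit, had 50 and 68 reads in DMSO and 90, 118 and 98 in UNC1999, with 0.67 ± 0.18 as log2 fold change and SE (adjusted p = 0.0043 in edgeR). That call was lost without DMSO library 1 (0.49, adjusted p = 0.137 in edgeR) and with offsets (0.28). ERCC3 (XPB), a translocase of the transcription factor TFIIH, had 913 and 898 reads in DMSO and 743, 826 and 698 in UNC1999, with -0.38 ± 0.11 (SE, adjusted p = 0.00589 in edgeR). Its groups did not overlap, but the call was lost without DMSO library 1 (-0.34, adjusted p = 0.114 in edgeR) and the value was 0.01 with offsets.

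ERCC2 (XPD), the TFIIH helicase, had 0.39 (with offsets 0.35), lost without DMSO library 1, DMSO library 2 or UNC1999 library 1 (adjusted p = 0.0529, 0.195 and 0.109 in edgeR). ERCC6, which couples repair to transcription, had 0.43 (with offsets 0.22), with the call kept only without UNC1999 library 2 among the left-out libraries (adjusted p = 0.0548 to 0.411 in edgeR for the other 4 fits). ERCC1, the partner of ERCC4, had -0.16 and was not called; 1593 of its exon bases are shared with CD3EAP on the opposite strand. ERCC5 (XPG) had 14 to 26 reads per library and 0.64 (adjusted p = 0.124 in edgeR), and 5213 of its exon bases also belong to the annotated readthrough gene BIVM-ERCC5. Of 15 other genes of the pathway tested, 3 were lower. UVSSA, an ERCC6 partner, had the lowest value (-0.49, with offsets -0.43), lost without DMSO library 1 (-0.20, adjusted p = 0.535 in edgeR).

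Over all 11 pathways, 108 of 121 companion repair genes were tested and 21 were higher and 24 lower, with a median log2 fold change of 0.05 (with offsets 20 and 17 of 100). These are 19.4% and 22.2% of the companions tested, beside 15.7% and 19.5% of all genes. Those with annotation had shorter transcripts (median 2772 nt against 4180 nt) and a higher GC content (median 46.9% against 43.0%).

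Several members act as fixed partners, and their read ratios were compared library by library for 10 pairs. The ratio of MSH3 to MSH6 was 0.089 and 0.101 in DMSO and 0.147, 0.125 and 0.163 in UNC1999, so the groups did not overlap. ERCC4 to ERCC1 went from 0.035 and 0.046 to 0.062, 0.088 and 0.070, and LIG4 to XRCC4 from 1.98 and 1.75 to 2.48, 2.31 and 2.36. FANCD2 to FANCI stayed between 0.264 and 0.292 in all libraries, with overlapping groups. Ratios of BRCA1 to BARD1, BRCA2 to PALB2, REV3L to REV1 and XRCC5 to XRCC6 were also higher in every treated library. LIG3 to XRCC1 and RAD50 to NBN overlapped. These ratios carry no offsets. With offsets the fold changes were close for BRCA2 (0.49) and PALB2 (0.51) and for REV3L (0.54) and REV1 (0.51). They stayed further apart for BRCA1 (0.67) and BARD1 (0.17), MSH3 (0.82) and MSH6 (0.01), and XRCC5 (0.10) and XRCC6 (-0.37). The same held for ERCC4 (0.28) and ERCC1 (-0.01), and for LIG4 (0.04) and XRCC4 (-0.27). With 2 libraries against 3 the smallest p of an exact two-sided permutation test is 0.1, which 6 of the 10 pairs gave (0.167 after Benjamini-Hochberg adjustment over the 10 pairs). That test therefore cannot reach 0.05 here, and no other test of the ratios was run.

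Summed over all 53 members, the share of library reads was 0.404% and 0.399% in DMSO and 0.398%, 0.422% and 0.384% in UNC1999, with overlapping groups. Within that sum the makeup shifted. XRCC6 and PARP1 together held 37.8% and 37.2% of the members' reads in DMSO and 22.7%, 26.35% and 22.3% in UNC1999. The 27 genes called higher held 18.96% and 19.96% in DMSO and 32.7%, 31.8% and 32.7% in UNC1999. These sums restate the calls and add no test of them.

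Per kilobase of transcript, XRCC6 (351.8 CPM per kb in DMSO), PARP1 (156.7) and XRCC5 (89.5) led the members. In UNC1999, PARP1 (92.5) and XRCC5 (92.3) were level. ERCC1 (45.9 in DMSO), ERCC3 (39.5) and FANCA (37.2) came next, and FANCG, XRCC3 and FANCI (35.7 to 35.3) lay too close to be ordered. At the low end stood FANCM (0.633), RAD50 (0.387) and ERCC5 (0.343). The levels of RAD50 and ERCC5 are uncertain, since many of their exon bases also belong to other annotated genes on the same strand. The members called higher had a median of 4.22 CPM per kb in DMSO, those called lower 13.9 and those not called 15.3. Levels per kilobase assume the longest annotated coding transcript and are approximate.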

How the data were processed

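Raw counts for each gene symbol, whole numbers in 1 column per library, were analysed as the authors deposited them. Tools named in the submitters' processing notes are edgeR 3.34.0, HTSeq 0.13.5, STAR 2.7.9 and fastp, with hg19 as genome build. The annotation, the strand setting and the treatment of multiply mapped reads were, for these counts, not given in the sources used here. Genes were kept with filterByExpr and fitted over the whole table with edgeR 4.0.16 (R 4.3.3): TMM factors, estimateDisp, glmQLFit and glmQLFTest, UNC1999 against DMSO. Adjusted p-values of fold changes are Benjamini-Hochberg values over the genes tested in the fit concerned, 13075 in the first fit and 11019 with offsets. Fits with a library left out were filtered and adjusted anew. The SE of a fold change is its size divided by the square root of F. The steps of the first fit were checked on simulated counts that held no trend with GC content or length. The other fits were not checked in this way.

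GC content, length, positions and overlaps are from GENCODE 29 (GRCh38), with no conversion of coordinates: the longest coding transcript of each gene was used, for 84.3% of tested genes and all 53 members. For the offsets, the difference between a library and the average library was fitted with splines in GC content (6 degrees of freedom) and length (4).

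Members, pathway groups, companion genes and the rule for naming genes were chosen with earlier results of these data known. By that rule, reads in every library are given for the called members with the highest and lowest fold change of each pathway and for BRIP1, BRCA1, BRCA2, FANCD2, FANCA, PARP1, XRCC5 and XRCC6, and companion genes are named for the highest and lowest called value of a pathway. Some items that the rule would name are not reported here. Alternatives were other scaling factors and filters, robust dispersion, DESeq2 1.42.0, limma-voom (limma 3.58.1), a replicate block, offsets, each library left out and a threshold of 0.01.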

Additional observations from a re-analysis of the deposited data

How the results depend on the processing

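Without alternatives, 27 members were higher, 7 lower and the median log2 fold change was 0.36. The counts stayed within 1.5 times of these in every setting except without DMSO replicate 1. Leaving out single libraries gave 15 to 30 higher, 4 to 8 lower and medians of 0.28 to 0.36; the cause of the loss without DMSO replicate 1 was not tested, apart from that fit holding 1 DMSO library. The median was 0.38 with DESeq2 size factors, 0.38 in the DESeq2 test, 0.46 with no normalization factors, 0.43 with upper-quartile factors, 0.16 with GC and length offsets and 0.14 with offsets and the replicate block. With no normalization factors the median of all genes was 0.09 in place of -0.01. Among the called members, NBN (-0.0308 with offsets, -0.0288 with offsets and the block) and ERCC3 (0.012 and 0.0332) changed sign. Some members that were not called, such as XRCC4 and PMS1, did so too. Same-numbered libraries of the 2 groups share only a number: their deviations from the group means correlated at 0.066 and 0.038. The replicate block gave 25 higher and 8 lower, without TP53BP1 and ERCC6 and with XRCC1. UNC1999 library 3 has no DMSO library of its number, so in both fits with the block it adds nothing to the fold changes. A threshold of 0.01 left 20 higher and 7 lower. Counts were low for ERCC5, RAD50 and FANCM, whose SEs (0.33, 0.25 and 0.22) were the widest of the members.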
